A study of Homo sapiens with 12 samples.

Results

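The change of the AU-15330 effect between 8 h and 24 h was examined in Z138 cells, a human mantle cell lymphoma line of B cell origin. AU-15330 is a PROTAC, a bifunctional molecule that directs the ATPases SMARCA2 and SMARCA4 and the PBRM1 subunit of the SWI/SNF (BAF) chromatin remodelling complexes to the proteasome. For each gene the effect of AU-15330 at 8 h (AU-15330 minus DMSO, in log2 units) was subtracted from the effect at 24 h. All 4 groups of the series entered, with 11 of its 12 samples: wild-type cells given 0.5 µM AU-15330 for 8 h (3 libraries) or 24 h (3 libraries), and wild-type cells given the DMSO vehicle for 8 h (2 libraries) or 24 h (3 libraries). The third DMSO sample at 8 h points to the same data column as the second, so it was not analysed here as a library of its own. All groups share 1 cell line, and no label says that replicates are independent cultures. The p-values therefore cover no more than the spread among these libraries, which may be technical.

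SWI/SNF complexes use ATP to slide or evict nucleosomes and so keep enhancers and promoters open to transcription factors. In B cells the enhancers of lineage genes, of the B cell receptor pathway and of MYC are among the sites that such factors occupy. Immediate early genes, such as the EGR and FOS transcription factors, are induced within minutes by growth factor, antigen receptor and serum signals, through serum response factor and other pre-bound activators, and their transcripts are short-lived.

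The same difference can be read along the other axis: it equals the change of the AU-15330 libraries from 8 h to 24 h minus the change of the DMSO libraries over the same interval. Each of these 2 parts was tested, which shows which libraries carry the difference of a gene. The labels give each time a batch of its own. Either part can therefore not be told apart from a shift between batches, whereas a shift that treated and vehicle libraries share on the log scale drops out of the change of the effect. Levels are normalised counts, relative to the whole library, and bulk RNA cannot tell fewer cells with a transcript from less transcript per cell. Testing was done with limma, after 60 was added to each normalised count and log2 taken; 59.4 normalised counts make 1 CPM (counts per library, scaled to a common total). Fold changes of genes near that level are understated on this scale.

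Of 12721 genes (table entries) tested, the AU-15330 effect changed in 2309, which is 18.2% (limma, adjusted p under 0.05). It was higher at 24 h than at 8 h in 943 genes (7.41%) and lower in 1366 (10.7%). Most of these changes were small, with a median size of 0.45 in log2 units, and a change of at least 2-fold was found for 102 genes in the higher direction (0.802%) and 113 in the lower (0.888%). These last counts depend on the pseudocount, with 181 higher at 15 and 20 higher and 54 lower at 300. Without the second DMSO library at 8 h, 603 genes were higher. The share of the changed genes that were lower was 59.2% without further scaling, 52.1% after library medians were centred and 48.4% after quantile normalisation. Neither direction therefore predominated under every scaling. For comparison, the effect of AU-15330 itself passed the test for 5643 genes at 8 h (44.4%), 2921 higher (23.0%) and 2722 lower (21.4%), and for 6461 genes at 24 h (50.8%), 3137 higher (24.7%) and 3324 lower (26.1%).

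The changes took several forms. Among the lower genes, 421 had no effect past the test at 8 h and a negative one at 24 h, 353 had a positive effect at 8 h that was no longer past the test at 24 h, and 342 were below the vehicle at both times. Among the higher genes, 330 were above the vehicle past the test only in the 24 h comparison, 230 had a negative effect past the test only in the 8 h comparison, and 156 were below the vehicle at both times. In 189 genes both effects passed the test with opposite signs: 79 went from below to above the vehicle and 110 from above to below.

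The AU-15330 libraries carried most of the changes. Between 8 h and 24 h, 5014 genes (39.4%) passed the test in the AU-15330 libraries, 2334 higher (18.3%) and 2680 lower (21.1%), against 1201 genes (9.44%) in the DMSO libraries, 778 higher (6.12%) and 423 lower (3.33%). Of the 2309 changed genes, 1688 (73.1%) moved in the AU-15330 libraries alone and 108 (4.68%) moved in both, further in the AU-15330 libraries. The DMSO libraries alone moved in 202 (8.75%), and in 31 (1.34%) both moved the same way, further in DMSO. Both moved, in opposite directions, in 128 genes (5.54%), and in 152 (6.58%) neither part passed on its own. The DMSO part rests on 2 libraries at 8 h and so has a larger standard error. Without the first or the second of them, 441 or 412 genes were higher and 172 or 167 lower in DMSO, and the genes carried by DMSO alone numbered 108 or 112, by both 69 or 46, and by AU-15330 beyond DMSO 32 or 35. Leaving out any 1 DMSO library at 24 h gave 246 to 263 genes lower in DMSO, 75 to 85 carried by both and 52 to 57 by AU-15330 beyond DMSO, and leaving out replicate 2 of AU-15330 at 24 h gave 64 of the last. Assigned by size instead, with at least 66.7% of the difference from one side, 1579 genes fell to the AU-15330 libraries, 261 to the DMSO libraries and 469 to both.

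**Figure D1:**
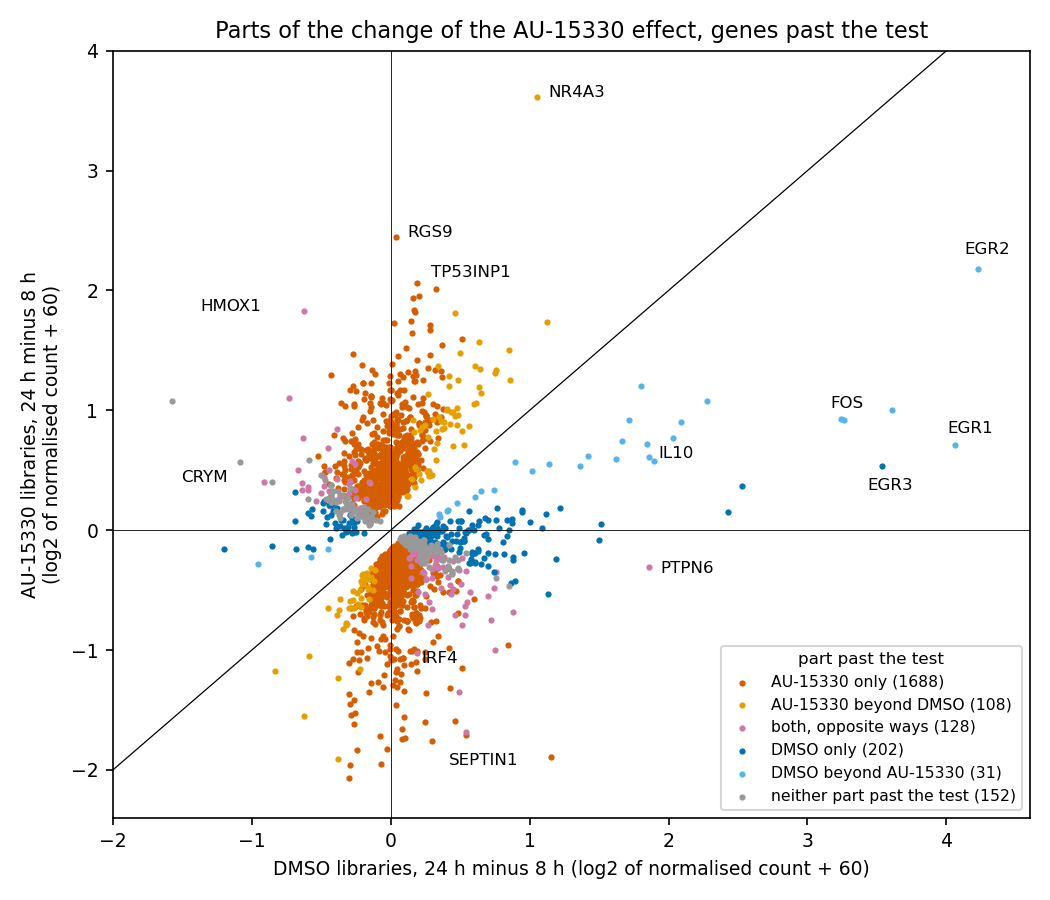
Change from 8 h to 24 h in the DMSO libraries (horizontal axis) and in the AU-15330 libraries (vertical axis), both in log2 units of normalised count + 60, for the 2309 genes whose AU-15330 effect changed, coloured by the part that passed the test. The diagonal marks equal change in both; most points lie near the vertical axis, and EGR1, EGR2, EGR3 and FOS lie far to the right, along the DMSO axis.

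The vehicle share was larger among the large falls. Of the 113 genes with a fall of at least 2-fold, 16 were carried by DMSO alone, 12 by DMSO beyond AU-15330, 17 by both and 65 by AU-15330 alone. Of the 102 genes with such a rise, 85 were carried by AU-15330 alone, 8 by both and 2 by DMSO alone. The difference between these shares was not tested.

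**Figure D2:**
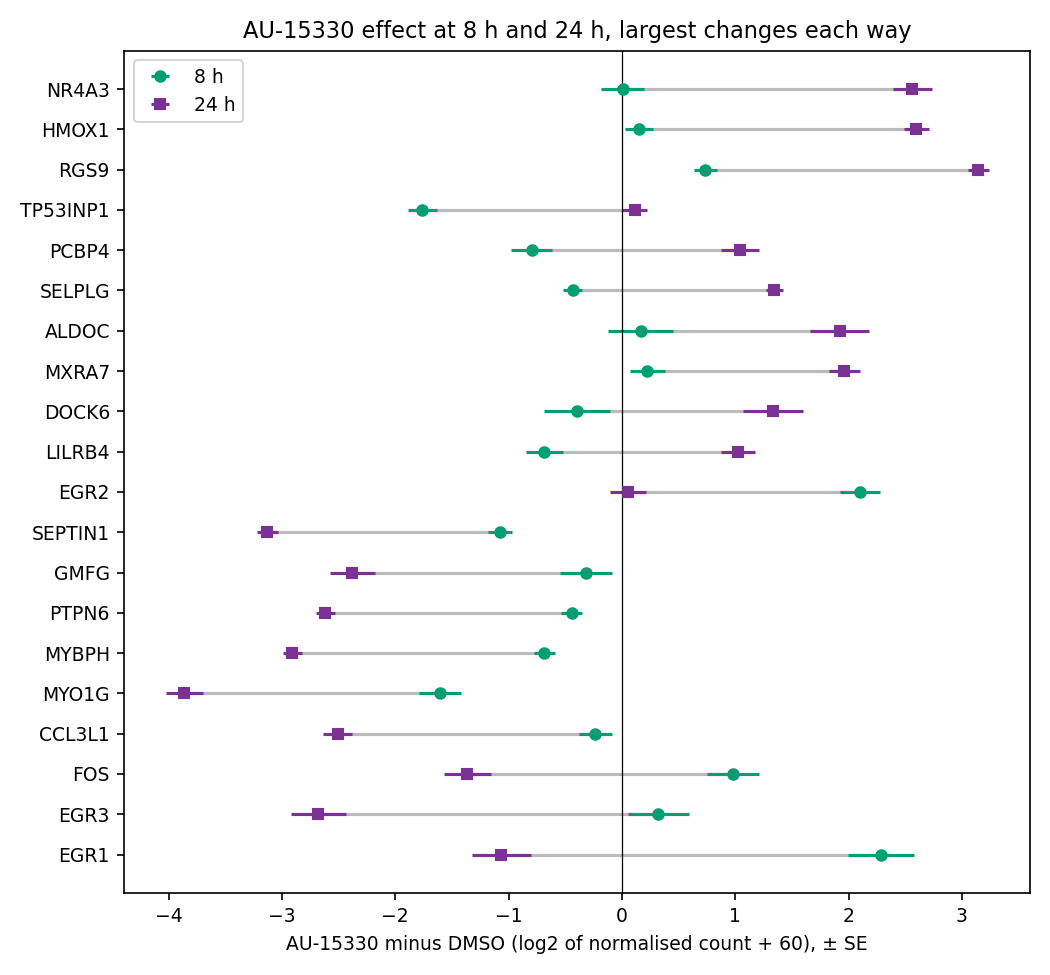
Effect of AU-15330 (AU-15330 minus DMSO, log2 of normalised count + 60, with its standard error) at 8 h (circles) and 24 h (squares) for the 10 genes with the largest rise and the 10 with the largest fall between the times. EGR1 and FOS lie above zero at 8 h and below it at 24 h, PCBP4, SELPLG and LILRB4 the other way round, and NR4A3 and HMOX1 are near zero at 8 h only.

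The 3 largest falls of genes named by the rule were those of EGR1, EGR3 and FOS, immediate early transcription factors, and the DMSO libraries carried them. EGR2, described with them, was the tenth of the 10 largest. EGR1, a zinc finger factor of the growth factor response (GRCh38, chromosome 5, 138465490 to 138469315, plus strand), had normalised counts of 359 and 216 in DMSO at 8 h, 1779, 1854 and 1230 in AU-15330 at 8 h, 4129, 7616 and 5618 in DMSO at 24 h, and 3287, 2963 and 1916 in AU-15330 at 24 h. No pair of these groups that the design compares overlapped: DMSO at 8 h was the lowest group and DMSO at 24 h the highest. EGR1 rose 20.1-fold in DMSO and 1.68-fold in AU-15330 between the times. The effect of AU-15330 thus went from 2.28 at 8 h to -1.06 at 24 h, a change of -3.35 ± 0.39 (log2, SE; limma, adjusted p = 0.00027).

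EGR2, a related factor, had 77.5 and 99.1 counts in DMSO at 8 h, 550, 582 and 590 in AU-15330 at 8 h, 2866, 3094 and 2254 in DMSO at 24 h and 3412, 3072 and 2125 in AU-15330 at 24 h. At 24 h treated and vehicle libraries overlapped, whereas at 8 h they were far apart. The change of its effect was -2.05 ± 0.24 (adjusted p = 0.000283), with a rise of 4.23 in DMSO and 2.18 in AU-15330 (log2).

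EGR3, the third member, had 18.4 and 19.8 counts in DMSO at 8 h, 17.4, 82.5 and 27.2 in AU-15330 at 8 h, 936, 1009 and 663 in DMSO at 24 h and 118, 89.4 and 50.4 in AU-15330 at 24 h. Treated and vehicle libraries overlapped at 8 h, and only DMSO rose clear of its 8 h range. Its effect fell by 3.00 ± 0.36 (adjusted p = 0.000345), and the AU-15330 libraries did not pass the test between the times (0.54, adjusted p = 0.102).

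FOS, which forms the AP-1 factor with JUN proteins, had 47.6 and 24 counts in DMSO at 8 h, 107, 150 and 128 in AU-15330 at 8 h, 644, 1108 and 867 in DMSO at 24 h and 359, 334 and 209 in AU-15330 at 24 h. As for EGR1, treated libraries stood above the vehicle at 8 h and below it at 24 h without overlap. The change was -2.35 ± 0.31 (adjusted p = 0.000629).

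The other members of the immediate early list went both ways. Of 24 members tested, 7 were lower (EGR1, EGR2, EGR3, FOS, SPRY2, IER2 and DUSP2) and 6 higher (NR4A3, NR4A2, DUSP4, IER5, KLF10 and JUND). That is 54.2% past the test against 18.2% of all genes tested, with a list median of 0.06 against -0.02. DMSO carried all 7 falls, alone for EGR3 and beyond a rise in AU-15330 for the other members, and AU-15330 carried all 6 rises. From 8 h to 24 h, 20 of the 24 rose in the AU-15330 libraries and 14 in the DMSO libraries, with none falling, and both medians were 0.75. Over all genes tested, 18.3% rose in the AU-15330 libraries and 6.12% in the DMSO libraries. Without the second DMSO library at 8 h, 6 were lower and 4 higher.

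Among the falls, SPRY2, a feedback inhibitor of receptor tyrosine kinase signalling, changed by -1.18 ± 0.18, having risen by 2.09 in DMSO and 0.90 in AU-15330. DUSP2, a MAP kinase phosphatase, changed by -0.79 ± 0.18 (adjusted p = 0.0132, and no longer past the test without the second DMSO library at 8 h). IER2 changed by -0.83 ± 0.14.

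NR4A3, an orphan nuclear receptor of the immediate early class (chromosome 9, 99821855 to 99866891, plus strand), had the largest rise of any gene named by the rule. It had 17.1 and 21.4 counts in DMSO and 15.1, 19.9 and 24 in AU-15330 at 8 h, then 137, 114 and 70 in DMSO and 1101, 972 and 709 in AU-15330 at 24 h. The groups overlapped at 8 h and were separate at 24 h. The change was 2.56 ± 0.26 (limma, adjusted p = 0.000116), with a rise of 3.61 in AU-15330 and 1.06 in DMSO.

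NR4A2 went from 27.9, 28.2 and 49.2 counts to 344, 342 and 284 in AU-15330, against 13.4 and 29.2 to 43.8, 39.8 and 40.9 in DMSO. Its treated and vehicle libraries likewise overlapped at 8 h and not at 24 h (change 1.69 ± 0.19). NR4A1 rose past the test in both, by 2.71 in AU-15330 and 1.97 in DMSO, and the change of its effect, 0.73 ± 0.26, did not pass (adjusted p = 0.0755). DUSP4, another MAP kinase phosphatase, changed by 1.43 ± 0.20. The EGR and NR4A genes, both immediate early families, therefore had changes of opposite sign for the members past the test.

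The promoters of EGR1, EGR2, FOS and NR4A3 are shown because these genes rose in the same libraries and yet differ in the sign of the change. Each window runs from 250 bases before to 50 bases after a RefSeq transcription start (GRCh38.p14, given 5′ to 3′ on the gene's strand), and capitals mark CArG boxes, the binding motif of serum response factor.
EGR1, chr5:138465229-138465528, plus strand: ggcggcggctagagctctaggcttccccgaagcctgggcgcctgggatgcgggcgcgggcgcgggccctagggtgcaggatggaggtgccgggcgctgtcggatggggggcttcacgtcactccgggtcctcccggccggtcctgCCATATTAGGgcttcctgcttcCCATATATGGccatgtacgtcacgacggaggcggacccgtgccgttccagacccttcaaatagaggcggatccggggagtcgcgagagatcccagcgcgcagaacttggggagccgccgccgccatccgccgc
EGR2, start 3 of the table, chr10:62816317-62816616, minus strand: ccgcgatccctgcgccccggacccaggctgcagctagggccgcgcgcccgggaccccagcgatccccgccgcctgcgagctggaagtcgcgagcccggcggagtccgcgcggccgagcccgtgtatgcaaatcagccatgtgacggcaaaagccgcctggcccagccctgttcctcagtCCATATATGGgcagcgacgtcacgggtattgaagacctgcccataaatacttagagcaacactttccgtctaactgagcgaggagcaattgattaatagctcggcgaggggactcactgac
FOS, chr14:75278578-75278877, plus strand: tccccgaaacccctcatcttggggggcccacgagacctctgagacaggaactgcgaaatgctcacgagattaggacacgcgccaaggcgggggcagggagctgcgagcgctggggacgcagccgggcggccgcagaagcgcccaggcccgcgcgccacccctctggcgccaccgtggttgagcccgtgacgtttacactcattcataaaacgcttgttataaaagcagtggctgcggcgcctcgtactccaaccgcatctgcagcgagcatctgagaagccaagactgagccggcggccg
NR4A3, chr9:99821635-99821934, plus strand: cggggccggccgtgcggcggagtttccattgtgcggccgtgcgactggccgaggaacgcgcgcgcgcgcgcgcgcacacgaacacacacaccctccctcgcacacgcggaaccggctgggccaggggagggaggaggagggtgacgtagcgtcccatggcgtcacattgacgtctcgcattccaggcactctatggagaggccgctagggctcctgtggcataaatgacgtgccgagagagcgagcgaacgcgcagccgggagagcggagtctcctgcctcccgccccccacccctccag
The CArG box, a motif of 10 letters, was searched by its consensus on both strands, where it reads alike. EGR1 held 2, at 105 and 83 bases before the start, and EGR2 held 1, at 71 bases before this start, while the NR4A3 window held none. The windows of the other 2 EGR2 starts held none either, and neither did that of FOS, whose change had the sign of EGR1. Boxes more than 250 bases before a start were not searched. The windows therefore cannot say whether a box goes with the sign of the change. CArG boxes occurred in 454 of 35116 promoter windows of the table (1.29%) and in 142 of 9009 tested genes matched to it (1.58%). They occurred in 2 of 19 matched immediate early genes (10.5%), in 4 of 132 genes whose effect fell through DMSO (3.03%), in 16 of 707 that fell through AU-15330 alone (2.26%) and in 11 of 527 that rose through it (2.09%). These are descriptions of the windows, and no match says only that the letters are not in the window.

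DMSO also carried changes of secreted factors. CCL3L1 and CCL3 encode near-identical chemokines that attract T cells and monocytes, so the split of reads between them is uncertain. CCL3L1 had 15.2 and 16.8 counts in DMSO and 1.28, 6.59 and 6 in AU-15330 at 8 h, then 347, 424 and 289 in DMSO and 4.84, 14.2 and 17.4 in AU-15330 at 24 h. Only the DMSO libraries at 24 h were high. Its effect changed by -2.27 ± 0.20 (adjusted p = 3.57e-05) and that of CCL3 by -2.17 ± 0.20, both through DMSO alone. CCL3 has 3 entries in the table, and the other entries changed by -2.31 and -2.61, with a rise in AU-15330 past the test and a larger one in DMSO. IL10, an anti-inflammatory cytokine, rose by 1.84 in DMSO and 0.72 in AU-15330 (change -1.12 ± 0.20).

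Within the NF-kappaB list, which holds CCL3 and IL10, 5 of 20 members were lower and 5 higher (median -0.02). That is 50.0% past the test, against 18.2% of all genes. The 5 higher ones were carried by the AU-15330 libraries. RELB, the transcription factor partner of the non-canonical pathway, was the strongest of these by p: 4478 and 4635 counts in DMSO and 5816, 5774 and 5603 in AU-15330 at 8 h became 5220, 5282 and 5335 in DMSO and 10250, 10700 and 9856 in AU-15330. It stood above the vehicle at both times, and further at 24 h (change 0.62 ± 0.06, adjusted p = 5.42e-05). BCL3 (0.68), BIRC3 (0.60), REL (0.35) and NFKB2 (0.29) changed the same way.

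**Figure D3:**
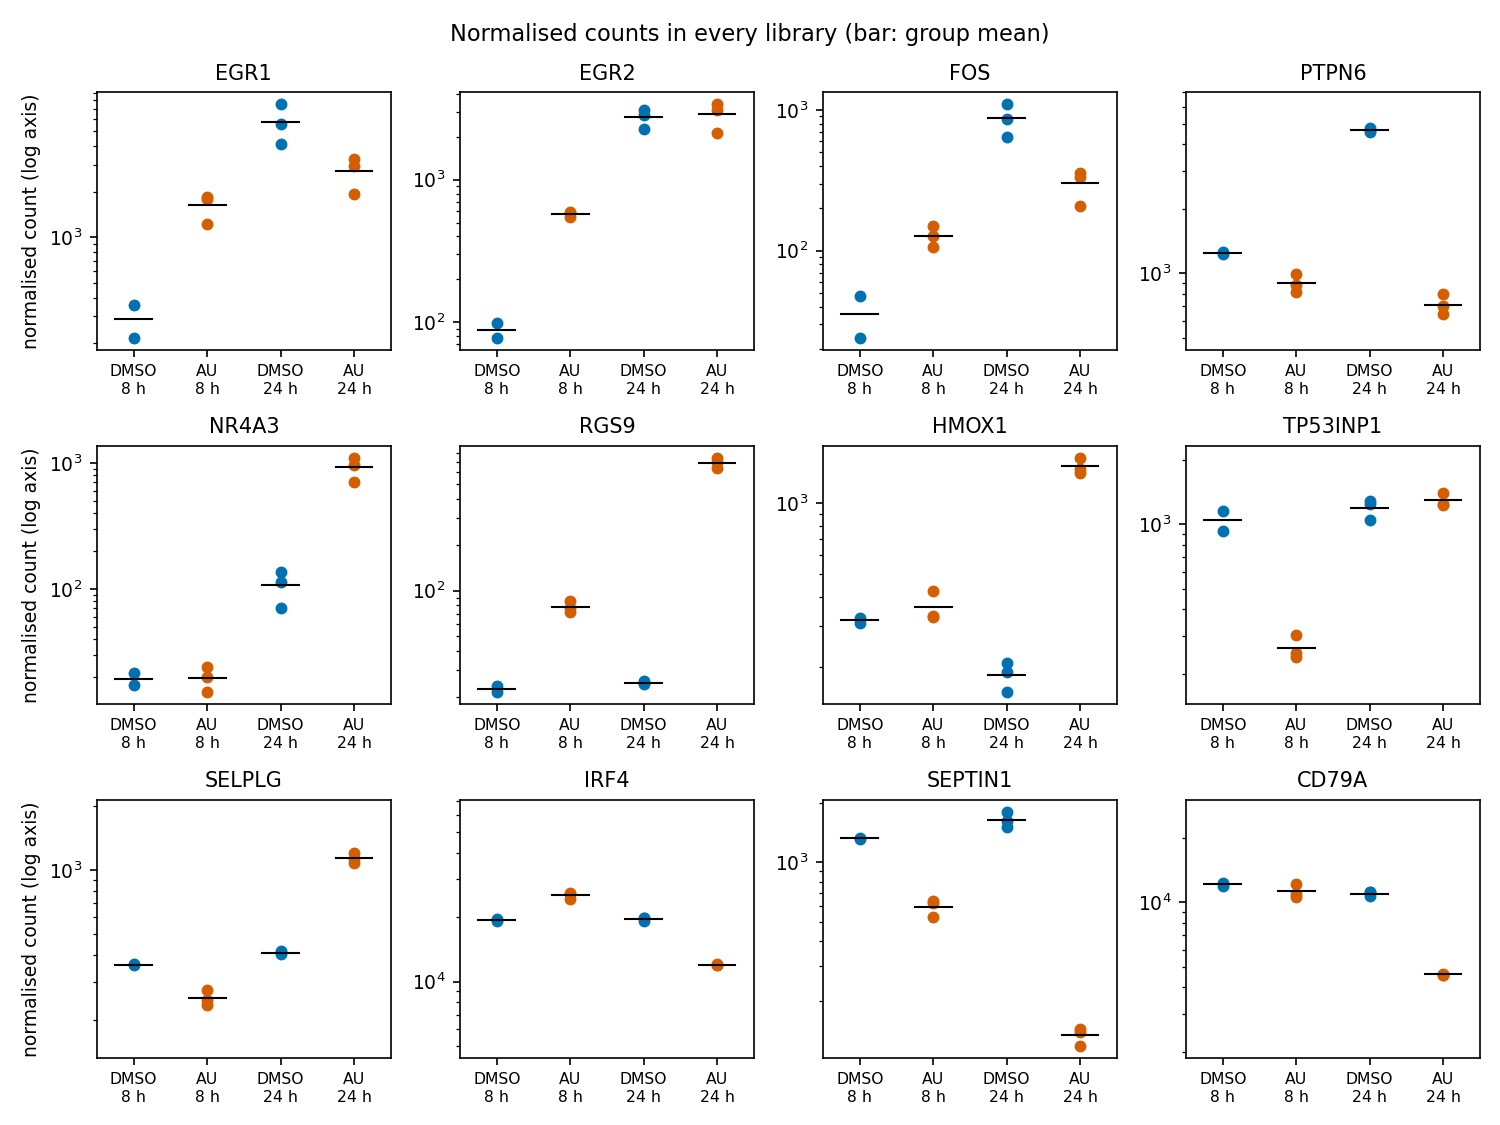
Normalised counts (log axis) in every library of 12 genes, DMSO in blue and AU-15330 (AU) in orange, at 8 h and 24 h, with a bar at each group mean. EGR1, EGR2 and FOS are lowest in DMSO at 8 h, PTPN6 stands out in DMSO at 24 h, and NR4A3, RGS9, HMOX1 and SELPLG stand out in AU-15330 at 24 h.

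PTPN6 (SHP-1), the tyrosine phosphatase that dampens B cell receptor signalling, had 1252 and 1232 counts in DMSO and 820, 882 and 996 in AU-15330 at 8 h. At 24 h it had 4584, 4647 and 4790 in DMSO and 645, 700 and 797 in AU-15330. The vehicle rose 3.76-fold while the treated libraries ended below all their 8 h values, so both sides carried the change of -2.17 ± 0.12 (limma, adjusted p = 3.87e-06).

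Genes of B cell receptor signalling that passed the test were all lower. Their list, like the others, was chosen with earlier results of these data known. Of 30 members tested, 14 were lower and 0 higher (46.7% past the test, against 18.2% of all genes), and the list median was -0.44. AU-15330 alone carried 7 of the 14, DMSO alone 1 and both 4. CD79A, a signalling chain of the receptor, had 11860 and 12340 counts in DMSO and 10580, 10960 and 12150 in AU-15330 at 8 h, then 11140, 10640 and 11100 in DMSO and 4586, 4553 and 4638 in AU-15330 at 24 h. Treated and vehicle libraries overlapped at 8 h, and at 24 h the treated libraries were below by 2.39-fold (change -1.14 ± 0.07, adjusted p = 5.41e-06).

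BTK, the kinase downstream of the receptor, was already lower at 8 h. It had 10360 and 9694 counts in DMSO and 4249, 4841 and 4388 in AU-15330 at 8 h, against 10760, 10230 and 10020 in DMSO and 1794, 1641 and 1907 in AU-15330 at 24 h. The vehicle held its range, and the deficit went from 2.23-fold to 5.81-fold (change -1.35 ± 0.09). CD81 changed in the same manner by -1.09. CD79B changed by -0.60, with the AU-15330 part past the test and the DMSO part not, although its DMSO libraries of the 2 times did not overlap (9959 ± 463 counts at 8 h, SD, n = 2, and 11150 ± 371 at 24 h, SD, n = 3; DMSO change 0.16, limma adjusted p = 0.206).

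MS4A1 (CD20) and PIK3CD, the B cell PI3-kinase subunit, were carried by both sides, at -0.89 ± 0.06 and -0.87 ± 0.07. CD22, an inhibitory co-receptor, had 200 and 156 counts in DMSO at 8 h and 296, 351 and 329 at 24 h. In AU-15330 it had 29.6, 19.9 and 17 at 8 h and 0, 20 and 16.9 at 24 h. Its change of -0.89 ± 0.20 thus came from the vehicle, with treated libraries low at both times, and it lost significance without the second DMSO library at 8 h and with a pseudocount of 15. Without that DMSO library 10 of the 30 members were lower.

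Among the B cell transcription factors, 12 of 28 were lower and 3 higher (53.6% past the test, median -0.23). IRF4, a factor of activated B cells and plasma cells, had 19140 and 19500 counts in DMSO and 24230, 26040 and 25770 in AU-15330 at 8 h. At 24 h it had 19250, 19880 and 19720 in DMSO and 11930, 12040 and 11930 in AU-15330. The treated libraries moved from above to below a vehicle that stayed level (effect 0.39, then -0.71; change -1.10 ± 0.05, adjusted p = 7.93e-07).

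KLF2, a factor of lymphocyte quiescence and homing, followed the same course, with an effect of 1.06 at 8 h and -0.69 at 24 h (change -1.74 ± 0.20). POU2AF1 (OBF-1), a B cell coactivator, changed by -1.16 ± 0.08 and was carried by AU-15330 alone. EBF1 and FOXO1, by contrast, were carried by DMSO: EBF1 had 3142 and 2550 counts at 8 h and 4584, 4853 and 4233 at 24 h in DMSO, but 1711, 2024 and 1439 and then 1454, 1583 and 1996 in AU-15330. The treated libraries of the 2 times overlapped and the vehicle libraries did not (change -0.71 ± 0.20, adjusted p = 0.0334). This call was lost without 1 library in 7 of the 11 leave-one-out fits.

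SPIB, an ETS factor, rose in both, by 0.75 in DMSO and 0.33 in AU-15330 (change -0.41 ± 0.10, not past the test without either DMSO library at 8 h). SOX11, the neural factor expressed in most mantle cell lymphomas, was 1 of the 3 that rose. It had 4833 and 6046 counts in DMSO and 6046, 6542 and 5984 in AU-15330 at 8 h, then 4640, 5332 and 5199 in DMSO and 10880, 11510 and 11540 in AU-15330. The overlap of treated and vehicle at 8 h was gone at 24 h (change 0.96 ± 0.12, adjusted p = 0.00037). MEF2B rose through a fall in DMSO (0.74 ± 0.12), and IKZF1 rose by 0.17.

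PAX5, the B lineage commitment factor, did not pass. It had 7910 and 6430 counts in DMSO and 2234, 2857 and 2504 in AU-15330 at 8 h, then 13710, 14790 and 14400 in DMSO and 6213, 7302 and 7395 in AU-15330. Both sides rose, by 1.00 and 1.44, and the treated libraries stayed below the vehicle (change 0.45 ± 0.15, adjusted p = 0.0608).

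Antigen presentation genes past the test were also lower. Of 14 MHC class II genes tested, 9 were lower and 0 higher (64.3% past the test against 18.2% of all genes, median -0.45). CIITA, the master coactivator of this class, had 6372 and 4721 counts in DMSO and 4365, 4097 and 4211 in AU-15330 at 8 h, and 7817, 7450 and 7906 in DMSO and 3234, 3370 and 3448 in AU-15330 at 24 h. The vehicle rose and the treated libraries fell, without overlap in either (change -0.82 ± 0.13). Of 15 class I genes, 7 were lower and 0 higher (46.7% past the test, median -0.54). Among the 7 were the immunoproteasome subunit PSMB10 (-0.73 ± 0.07) and B2M (-0.54 ± 0.06). AU-15330 alone carried 3 of the 7 and both sides 1, and for 3 neither part passed. The class I count was 4 after library medians were centred, with no filter and with a prior without trend, and 7 after quantile normalisation. The HLA genes and B2M have several entries in the table, for alternate haplotypes or loci, so their own values (HLA-DQB1 -0.80, HLA-DPB1 -0.76, HLA-DRB1 -0.56) are uncertain. Without the second DMSO library at 8 h, 8 class II and 4 class I genes were lower, and the class I count was also 4 without the first DMSO library at 8 h, replicate 3 of AU-15330 at 8 h, replicate 2 of AU-15330 at 24 h, or replicate 1 or 3 of DMSO at 24 h.

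MYC and ribosome biogenesis moved the same way, at small sizes. MYC had 50090 and 50180 counts in DMSO and 65010, 63700 and 63540 in AU-15330 at 8 h, and 55190, 55640 and 55370 in DMSO and 49340, 48760 and 47790 in AU-15330 at 24 h. The treated libraries went from above to below the vehicle, with both sides moving (change -0.54 ± 0.04, limma, adjusted p = 6.79e-06). In the list of MYC targets and ribosome biogenesis genes, 26 of 39 were lower and 1 higher (69.2% past the test, median -0.24). AU-15330 alone carried 21 of these changes.

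POLR1B, a subunit of RNA polymerase I, had the largest fall of this list (-0.80 ± 0.13). Its counts were 8016 and 7258 in DMSO and 9961, 11420 and 10370 in AU-15330 at 8 h, and 7520, 8316 and 7755 in DMSO and 5623, 5903 and 7267 in AU-15330 at 24 h. The vehicle libraries of the 2 times overlapped. Nucleolin (NCL) changed by -0.36 ± 0.05, and the transferrin receptor TFRC was the 1 member that rose (0.44 ± 0.04). After quantile normalisation 14 members were lower and 1 higher, with a median of -0.15, so the count depends on scaling while the sign of the median does not.

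Heat shock chaperones fell between the times on both sides. Of 17 tested, 14 fell in AU-15330 and 11 in DMSO, with none rising in DMSO and 1, HSPB1, in AU-15330. Over all genes tested, 21.1% fell between the times in AU-15330 and 3.33% in DMSO. The change of the effect was lower for 5 and higher for 1 (35.3% past the test against 18.2% of all genes, median -0.14). HSPA8, the constitutive HSC70, had 224000 and 208300 counts in DMSO and 257200, 250100 and 263300 in AU-15330 at 8 h, then 149300, 138400 and 142300 in DMSO and 116500, 128600 and 127700 in AU-15330. It fell further in AU-15330, by 1.05 against 0.59 in log2 units (change -0.46 ± 0.07).

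Other large falls were carried by the AU-15330 libraries alone or by both. MYO1G, a haematopoietic myosin, had 1395 and 1595 counts in DMSO and 385, 438 and 536 in AU-15330 at 8 h, and 1922, 2200 and 2527 in DMSO and 72.5, 81.6 and 140 in AU-15330 at 24 h. Its deficit went from 3.30-fold to 22.6-fold (change -2.26 ± 0.25, adjusted p = 0.000167). SEPTIN1, a cytoskeletal GTPase of lymphocytes, changed by -2.06 ± 0.14 and GMFG, an actin regulator of haematopoietic cells, by -2.06 ± 0.30, both through AU-15330 alone, while MYBPH changed by -2.22 ± 0.13 and TNFRSF19 by -1.84 ± 0.16 through both sides.

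The chemoattractant receptor and adhesion list split, with 6 of 19 members lower and 5 higher (57.9% past the test against 18.2% of all genes). GPR183 (EBI2), the oxysterol receptor that positions B cells in follicles, had 1916 and 1826 counts in DMSO and 343, 268 and 313 in AU-15330 at 8 h, and 2011, 2075 and 1861 in DMSO and 54.7, 45.5 and 49 in AU-15330 at 24 h. The vehicle held its range and the deficit went from 6.07-fold to 39.9-fold (change -1.82 ± 0.13, adjusted p = 1.28e-05). CXCR4, the CXCL12 receptor, changed by -0.48 ± 0.04, and ITGB7 by -1.67.

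SELPLG (PSGL-1), the selectin ligand, went the other way. It had 363 and 360 counts in DMSO and 235, 275 and 247 in AU-15330 at 8 h, then 416, 412 and 403 in DMSO and 1130, 1198 and 1079 in AU-15330. Treated libraries were all below the vehicle at 8 h and all above it at 24 h (effect -0.43, then 1.34; change 1.78 ± 0.11, adjusted p = 5.41e-06). The sphingosine phosphate receptors S1PR2 (0.91) and S1PR1 (0.54), the chemokine receptor CCR7 (0.78) and RAC2 (0.76) also rose.

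RGS9 was among the largest rises. This regulator of G protein signalling had 23.6 and 21.6 counts in DMSO and 71.8, 85 and 76.4 in AU-15330 at 8 h, and 25.4, 24.6 and 24.3 in DMSO and 697, 742 and 632 in AU-15330 at 24 h. The vehicle did not move and the excess went from 3.44-fold to 27.9-fold (change 2.41 ± 0.14, limma, adjusted p = 3.87e-06).

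HMOX1, the haem-degrading enzyme of the oxidative stress response, had 324 and 309 counts in DMSO and 328, 330 and 422 in AU-15330 at 8 h, and 191, 208 and 157 in DMSO and 1553, 1388 and 1335 in AU-15330 at 24 h. The groups were close at 8 h and then parted, with AU-15330 up 3.96-fold and DMSO down 1.71-fold (change 2.45 ± 0.17). In the list of NRF2 targets 9 of 21 were higher and 1 lower (47.6% past the test, median 0.10), including the cystine transporter SLC7A11 (0.79 ± 0.21, lost in 3 of the 11 leave-one-out fits), OSGIN1 (0.85 ± 0.18) and the ferritin light chain FTL (0.33 ± 0.04).

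The p53 target genes past the test rose through the AU-15330 libraries. Of 25 tested, 12 were higher and 0 lower (48.0% past the test, median 0.28), 11 of them through AU-15330 alone. TP53INP1, a stress-induced p53 cofactor, had 926 and 1158 counts in DMSO and 240, 250 and 305 in AU-15330 at 8 h, and 1240, 1286 and 1051 in DMSO and 1236, 1237 and 1401 in AU-15330 at 24 h. It was below the vehicle at 8 h and overlapped it at 24 h, so the 8 h deficit was not seen at 24 h (effect -1.76, then 0.11; change 1.87 ± 0.17, adjusted p = 4.51e-05).

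CDKN1A (p21), the cyclin-dependent kinase inhibitor, was lower than the vehicle at both times but less so at 24 h (effect -1.09, then -0.34; change 0.75 ± 0.09). BTG2, an antiproliferative gene, instead had 1699 and 1663 counts in DMSO and 3998, 3833 and 3956 in AU-15330 at 8 h, and 1766, 1956 and 1760 in DMSO and 8300, 8434 and 7491 in AU-15330 at 24 h. It stood above the vehicle at both times, and further at 24 h (change 0.91 ± 0.08). Of the 25 p53 targets, 14 had a negative effect past the test at 8 h and 7 at 24 h, and 3 had a positive one at 8 h and 6 at 24 h. Over all genes tested, 21.4% had a negative effect past the test at 8 h and 26.1% at 24 h. A positive one was found for 23.0% at 8 h and 24.7% at 24 h, so the list was close to all genes at 24 h.

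In the BCL2 family 5 of 13 members were higher and 0 lower (38.5% past the test against 18.2% of all genes, median 0.31). BMF, a BH3-only death protein, had 2039 and 2188 counts in DMSO and 542, 674 and 524 in AU-15330 at 8 h, and 1834, 1824 and 1569 in DMSO and 1423, 1421 and 1384 in AU-15330 at 24 h. It remained below the vehicle, with most of the deficit gone (change 1.48 ± 0.14, adjusted p = 5.67e-05). BBC3 (PUMA), also BH3-only, went from below to above the vehicle (effect -0.44, then 0.52; change 0.95 ± 0.18). The survival protein MCL1 changed by 0.20 ± 0.05 and lost the call without the second DMSO library at 8 h, when 3 members were higher.

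Lysosomal genes were higher in 11 of 25 members and lower in 2 (52.0% past the test, median 0.27). CTSZ, a lysosomal protease, had 584 and 590 counts in DMSO and 328, 354 and 248 in AU-15330 at 8 h, and 726, 693 and 584 in DMSO and 901, 876 and 673 in AU-15330 at 24 h. It was clear of the vehicle at 8 h and overlapped it at 24 h (change 1.08 ± 0.20). GLA, alpha-galactosidase, changed by 0.81 ± 0.09. PSAP, the saposin precursor, was carried by a fall of 0.35 in DMSO (change 0.32 ± 0.07), a call lost without the first DMSO library at 8 h. Without the second DMSO library at 8 h 5 members were higher and 0 lower, and 7 were higher without the first or without replicate 2 of AU-15330 at 24 h.

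ABCA1 and ABCG1 export cholesterol and are targets of the liver X receptors. ABCG1 had 1230 and 1152 counts in DMSO and 468, 406 and 469 in AU-15330 at 8 h, and 1373, 1330 and 1260 in DMSO and 1627, 1628 and 1668 in AU-15330 at 24 h. It moved from below to above the vehicle (effect -1.30, then 0.30; change 1.60 ± 0.10), and ABCA1 stayed below it while rising (effect -2.05, then -1.01; change 1.03 ± 0.12). Among fatty acid synthesis genes 6 of 15 were higher and 0 lower, including the factor SREBF1 (0.59 ± 0.11), while the list median was -0.02. The 6 are 40% against 18.2% of all genes, but 2 were higher without the first DMSO library at 8 h and 3 without replicate 2 of AU-15330 at 24 h. Cholesterol synthesis genes were lower in 5 of 24 and higher in 2 (29.2% past the test against 18.2%, median -0.12), and after quantile normalisation lower in 2 and higher in 3. Leaving out 1 library gave 2 to 6 lower, with 2 without the first DMSO library at 8 h, and 0 to 2 higher. None was higher without replicate 1 or 3 of AU-15330 at 8 h, the second DMSO library at 8 h or replicate 3 of DMSO at 24 h. Of the 24 cholesterol synthesis genes 21 were above the vehicle past the test at 8 h and 17 at 24 h, against 23.0% and 24.7% of all genes.

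**Figure D4:**
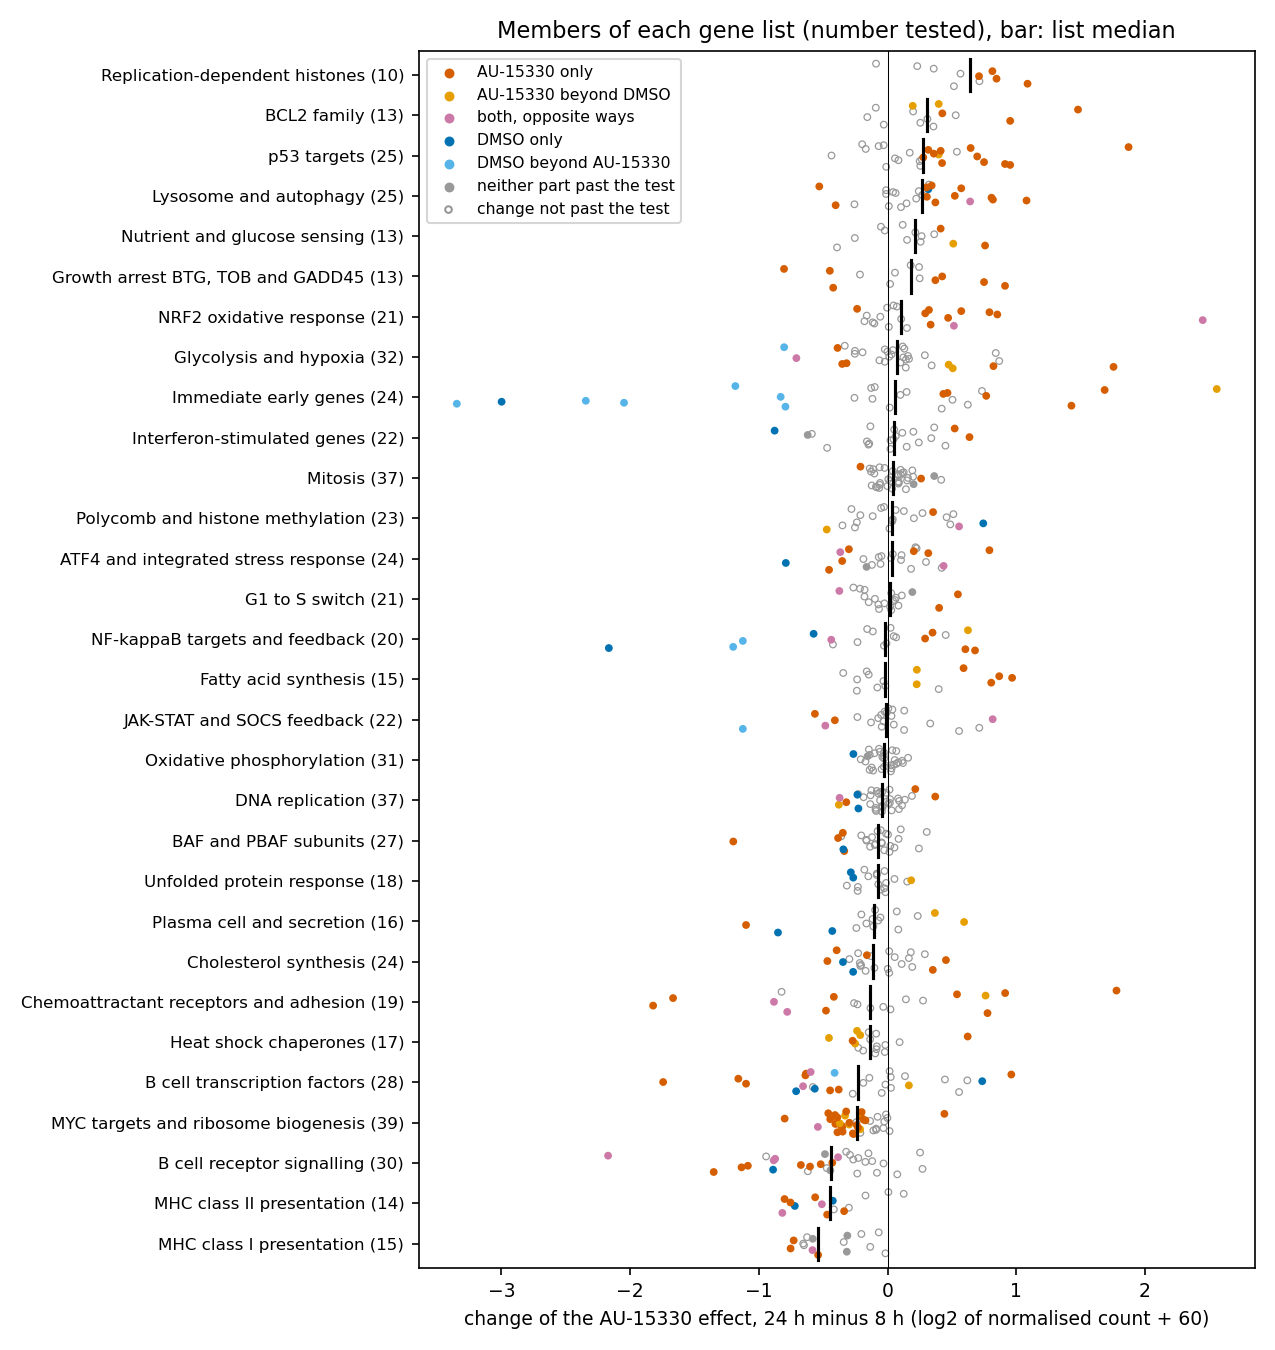
Change of the AU-15330 effect (24 h minus 8 h, log2 of normalised count + 60) for each tested member of the gene lists, with the number tested in brackets and a bar at the median. Filled points passed the test and are coloured by the libraries that carry the change; ribosome biogenesis, B cell receptor signalling and both MHC lists lie mostly to the left of zero, p53 targets and the BCL2 family mostly to the right, and the immediate early list reaches both ends.

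A smaller set of genes rose because the vehicle fell. NINJ1, a membrane protein of cell rupture, had 4304 and 4423 counts in DMSO and 1318, 1433 and 1286 in AU-15330 at 8 h, and 2684, 2689 and 2688 in DMSO and 1442, 1450 and 1373 in AU-15330 at 24 h. The treated libraries of the 2 times overlapped while the vehicle dropped (change 0.76 ± 0.08, adjusted p = 0.000104). CBX8, a Polycomb subunit (0.74 ± 0.13), and BDKRB2, a bradykinin receptor (1.00 ± 0.22), were carried likewise. CRYM, a thyroid hormone binding protein, had 104 and 106 counts in DMSO and 1909, 1628 and 1503 in AU-15330 at 8 h, and 29.2, 23.6 and 30.8 in DMSO and 2255, 2445 and 1992 in AU-15330 at 24 h. Its excess went from 16.0-fold to 80.1-fold, with both sides moving apart (change 1.31 ± 0.15).

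Several large rises rested on less even libraries. ALDOC, a glycolytic aldolase, had 1823, 1711 and 846 counts in AU-15330 at 24 h, and DOCK6 had 1451, 1676 and 807, with replicate 3 lower in both (changes 1.76 ± 0.39 and 1.73 ± 0.39, adjusted p = 0.0103 and 0.0125). LILRB4, an inhibitory receptor with 5 entries in the table and so of uncertain count, changed by 1.71 ± 0.22, PCBP4, an RNA-binding protein, by 1.84 ± 0.25 and MXRA7 by 1.74 ± 0.21.

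Of the proteins that AU-15330 degrades, only the transcript of SMARCA2 passed. SMARCA2 had 5133 and 5361 counts in DMSO and 3798, 3781 and 3642 in AU-15330 at 8 h, and 4850, 5320 and 4910 in DMSO and 2952, 2864 and 2398 in AU-15330 at 24 h. It was below the vehicle at both times, and further at 24 h (change -0.39 ± 0.11, adjusted p = 0.0277); the call was lost after quantile normalisation and in 5 of the 11 leave-one-out fits. SMARCA4 changed by -0.12 ± 0.07 (adjusted p = 0.276) and PBRM1 by -0.17 ± 0.08 (adjusted p = 0.158). These transcripts do not measure the degradation, which acts on protein.

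Of 27 subunits of the complexes, 5 were lower and 0 higher, 18.5% against 18.2% of all genes, which is close to the background (3 without either DMSO library at 8 h). DPF1, a subunit of the neuronal form of the complex, accounted for the largest of these falls. It had 258 and 162 counts in DMSO and 644, 660 and 543 in AU-15330 at 8 h, and 192, 187 and 159 in DMSO and 207, 235 and 173 in AU-15330 at 24 h. Its excess at 8 h was gone at 24 h, where the groups overlapped (change -1.20 ± 0.21). CCND1, the cyclin D1 gene driven by the translocation of mantle cell lymphoma, did not pass (0.03 ± 0.04, adjusted p = 0.697) at 146900 to 169200 counts in every library.

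Cell cycle and energy genes stayed near or below the background. Of 37 mitosis genes 3 were higher and 1 lower (10.8% past the test), and of 31 oxidative phosphorylation genes 2 were lower (6.45%). DNA replication genes were lower in 5 of 37 and higher in 2 (18.9% past the test against 18.2% of all genes). Their median of -0.04 turned to 0.04 after quantile normalisation. After that scaling 7 mitosis genes were higher and 0 lower, and no oxidative phosphorylation gene passed. Without the first DMSO library at 8 h 1 mitosis gene was higher and 0 lower, 3 replication genes were lower, and no oxidative phosphorylation gene passed.

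The libraries held an estimated 50746999 to 67584954 counts, so counting error was small for all but the lowest genes named. All 8 B cell markers were tested and expressed. Their summed levels were 6260 to 7060 CPM in DMSO and 4140 to 5340 CPM in AU-15330. In the change of the effect 7 of the 8 were lower (87.5%, against 10.7% of all genes), so the marker list itself moved with the comparison. The mantle cell lymphoma gene CD5 was below 0.1 CPM in every library. Of 10 T cell markers 4 were tested, with sums of 39.5 to 45.8 CPM in DMSO and 10.8 to 14.3 CPM in AU-15330. LCK and CD3G made up most of it in DMSO, and CD3D, TRBC1 and TRAC were under 1 CPM in every library. Of 9 myeloid markers none was tested, with sums of at most 1.38 CPM, and erythroid, megakaryocyte, fibroblast and epithelial lists had 1, 1 and 2 members tested, where COL1A1 was at 19.7 CPM or more in DMSO at 24 h and at 5.26 or less in AU-15330 (change -1.24 ± 0.39, adjusted p = 0.0504). The part of these markers in the other results was not tested.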

How the data were processed

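RNA-seq of Z138 cells was summarised by the submitters per gene. Per the submitters' processing notes, the build was GRCh38.p13 and the tools were DESeq2 1.24.0, R 4.3.2, kallisto 0.46.1, Trimmomatic 0.40 and FastQC 0.11.9. Per the labels' protocols, libraries were poly(A) or ribosome-depleted TruSeq libraries with reads of 50 bp, with no kit given per sample, while the molecule is labelled poly(A) RNA. The authors deposited log2 values for 20318 entries in 12 columns, of which 1, identical to another and carrying the same name, was not used. No source used here states the transform. The lowest value, 10.36053, and the form of the values fit a variance-stabilising transform with 1 constant (1314.7 normalised counts), which was inverted to normalised counts. Of the recovered low values (up to 20), 53.9 to 56.1% were whole within 0.02, so no count model was used. On the deposited log2 scale a doubling measures 0.163, 0.461 and 0.852 at 100, 1000 and 10000 counts, which is why log2(normalised count + 60) was tested and the deposited scale was an alternative.

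Entries with at least 1 CPM (59.4 normalised counts) in at least 3 libraries were tested (12721, 62.6%) with limma 3.58.1 in R 4.3.3: 1 mean per group, a mean-dependent prior, 7 residual degrees of freedom, two-sided, Benjamini-Hochberg over all entries, threshold 0.05. The procedure was tested on simulated data. Coordinates of genes are from GENCODE (GRCh38); promoters are from RefSeq (GRCh38.p14). Libraries were not paired by replicate number in the main test. None of 15 same-number pairs correlated above 0.1, but 9 of 11 libraries correlated best with their own number.

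Genes named are those past the test on both scales with at least 5 CPM in a group and a symbol with 1 entry in the table or on the primary assembly: the 10 largest each way and the 3 largest each way per class of carrier. Also named are the 3 tested members with the smallest p per list, taken whether or not they met those conditions, which departs from the rule as first written, and SMARCA2, SMARCA4, PBRM1, CCND1, SOX11, MYC and PAX5. Members and the 37 lists were chosen with earlier results of these data known, and further genes were named after their values were seen (such as KLF2, BTK, ABCG1, CXCR4, EBF1, CIITA and POLR1B). Alternatives covered the scale, pseudocount, filter, scaling, prior, replicate number and each library left out.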

Additional observations from a re-analysis of the deposited data

Results flagged for a closer look

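The AU-15330 effect differed between 8 h and 24 h in 2309 entries by the test of the difference itself (limma, adjusted p under 0.05). In 30 of the genes named, the effects at both times also passed the test with opposite signs. The 4 largest differences each way among the genes open to naming by the rule are given here. The difference was 1.84 for PCBP4, 1.78 for SELPLG, 1.71 for LILRB4 and 1.60 for ABCG1, which went from below the vehicle to above it. It was -3.35 for EGR1, -2.35 for FOS, -1.76 for AHNAK and -1.74 for KLF2, which went from above the vehicle to below it. AHNAK had 2621, 3605 and 4532 counts in AU-15330 at 24 h, which overlapped the DMSO libraries (4454, 5798 and 5984), whereas the other 7 did not overlap at either time. Groups of 3 or fewer libraries are too small for a test of single outlying libraries, and none was made.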

How the results depend on the processing

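No named gene changed direction under the alternatives run, and 342 of 371 alternative values of the main counts stayed within 1.5 times. Genes changed by at least 2-fold moved most: 181 higher with a pseudocount of 15, 20 higher and 54 lower with 300, and 67 higher with a filter at 5 CPM. Without 1 library, the higher changes ranged from 603 (without the second DMSO library at 8 h) to 948. Genes higher between the times in DMSO ranged from 412 to 812 and those lower from 167 to 468. The class carried by AU-15330 beyond DMSO ranged from 32 to 104, DMSO alone from 108 to 214 and both from 46 to 142. Without a filter 70 genes were in the class carried by AU-15330 beyond DMSO, and by size 469 were carried by both. The lowest of these leave-one-out values came from leaving out a DMSO library at 8 h, which leaves 1 there, assumed to vary like the other groups. With the parts at an unadjusted p of 0.01, chosen after seeing the data, DMSO alone carried 284.

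A replicate block over all groups gave 852 higher and 1211 lower, and a replicate block within time 588 higher and 763 lower. Same-number correlations ran from -0.03 to 0.09, and 9 of 11 libraries correlated best with their own number. Whether the numbers mark pairs was not tested.

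The 8 h vehicle group is the weakest point: leaving out its first library ended 17 of the named calls (among them SLC7A11, SMARCA2, PSAP and UBE2C) and leaving out the second ended 14 (among them CD22, DUSP2, MCL1, H2AC6 and H2BC8). The block within time also ended 17. Low genes (RGS9, NR4A3, EGR3, CCL3L1, CD22) are near the pseudocount in some groups, so their fold changes depend on it.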

Other observations

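Several further genes had large changes that no list covered, chosen here after their values were seen. S100A4, a calcium-binding protein of motile cells, had 5127 and 5272 counts in DMSO and 3898, 3800 and 4051 in AU-15330 at 8 h, and 5422, 5558 and 5661 in DMSO and 1255, 1318 and 1291 in AU-15330 at 24 h. The treated libraries carried the change of -1.65 ± 0.06 (limma, adjusted p = 2.83e-07). LY86 (MD-1), a surface protein of B cells, changed by -1.88 ± 0.12, and CREB5 by -1.85 ± 0.26. SASH3, a lymphocyte adaptor, was already far below the vehicle at 8 h and fell further (effect -3.75, then -5.05).

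Replication-dependent histone transcripts were higher in 4 of 10 members tested and lower in none (median 0.64), carried by AU-15330. Over all genes tested, 18.2% passed the test in either direction and 7.41% were higher. With 10 members, the share of this list turns on few genes. H2AC6 had 190 and 220 counts in DMSO and 142, 165 and 111 in AU-15330 at 8 h, and 261, 345 and 189 in DMSO and 415, 559 and 384 in AU-15330 at 24 h (change 1.09 ± 0.27). Near-identical copies make reads of these genes uncertain to assign, most of their transcripts lack a poly(A) tail, and the kit is not given per sample. Without either DMSO library at 8 h, 2 of the 10 were higher.

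Genes of the T cell list went both ways in this B cell line. The costimulatory receptor CD28 had 26.3 and 13.4 counts in DMSO and 163, 56.4 and 87.1 in AU-15330 at 8 h, and 45.8, 28.1 and 17.4 in DMSO and 492, 471 and 510 in AU-15330 at 24 h (change 1.65 ± 0.31). CD3G and the kinase LCK changed by -1.16 ± 0.17 and -0.69 ± 0.14. MZB1, a chaperone of antibody-secreting cells, was below the vehicle at both times and less so at 24 h (effect -1.89, then -1.30).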
